A study of Homo sapiens with 6 samples.

Results

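The network of MYC, MAX, the MXD proteins and the Mondo proteins was followed in HCT116, a long-established line of human colorectal cancer cells, together with TXNIP, the best known target of its glucose-sensing arm. The 10 genes were taken by name: MYC, MAX, MXD1, MXD3, MXD4, MXI1, MNT, MLX, MLXIP and TXNIP. All 10 were found among the 28395 gene IDs of the count files. Cells had been given 50 nM TR-107, an agonist of the mitochondrial matrix protease ClpP, for 24 h (3 libraries), or the vehicle, 0.1% DMSO, for 24 h (3 libraries). Both groups were HCT116 cells in the same medium, and the labels name no other agent and no genetic change. Libraries of polyadenylated RNA held 17264039 to 23708135 gene counts. Levels are given as CPM, a gene's counts scaled to the size of its library. Fold changes give TR-107 relative to DMSO.

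MYC is a transcription factor that drives growth and proliferation, and it binds DNA at the E-box, CACGTG, only as a dimer with MAX. The MXD proteins (MXD1, MXI1, MXD3 and MXD4) and MNT also pair with MAX, sit on the same E-boxes and recruit the SIN3 corepressor, so they oppose MYC. MLX is a second, MAX-like hub, which pairs with some MXD proteins, with MNT and with the Mondo proteins MLXIP (MondoA) and MLXIPL (ChREBP). Mondo-MLX dimers enter the nucleus when glucose 6-phosphate is plentiful and switch on TXNIP, an arrestin-fold protein that binds thioredoxin and limits glucose uptake. In colorectal tumours MYC is a main target of Wnt signalling.

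Promoter sequences are shown for 4 genes, 3 members and the TXNIP relative ARRDC4. MXD4, TXNIP and ARRDC4 are shown because they carry DNA elements that define the network, and MXD1 because it changed the most and carries none of them in this window. RefSeq windows of 300 bases around the start site (250 before it and 50 after, GRCh38.p14) were searched on both strands for the E-box CACGTG, for a pair of CACGNG elements with 5 bases between them, for CCAAT and for TGATGNAA, the core of sites bound by ATF4 dimers. An E-box may overlap a CACGNG pair. The 250 bases before the start are printed 5′ to 3′ along the gene, with E-boxes, the CACGNG pair and CCAAT (or its complement ATTGG) in capitals. In the GENCODE 29 annotation, exons of the gene itself reach into each of the 4 printed windows. Positions are therefore counted from the RefSeq start used here and need not hold for other starts.
MXD1, chr2:69914859-69915108, strand +: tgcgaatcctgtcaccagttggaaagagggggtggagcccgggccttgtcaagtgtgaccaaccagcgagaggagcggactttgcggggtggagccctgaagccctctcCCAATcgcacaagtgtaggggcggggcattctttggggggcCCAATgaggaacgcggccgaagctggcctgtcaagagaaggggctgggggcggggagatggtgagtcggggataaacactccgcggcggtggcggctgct
MXD4, chr4:2262110-2262359, strand -: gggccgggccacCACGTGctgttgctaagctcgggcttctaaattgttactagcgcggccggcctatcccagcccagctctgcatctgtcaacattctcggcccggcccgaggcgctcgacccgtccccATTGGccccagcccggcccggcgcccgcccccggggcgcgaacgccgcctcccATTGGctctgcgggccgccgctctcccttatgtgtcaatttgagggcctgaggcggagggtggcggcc
TXNIP, chr1:145996580-145996829, strand -: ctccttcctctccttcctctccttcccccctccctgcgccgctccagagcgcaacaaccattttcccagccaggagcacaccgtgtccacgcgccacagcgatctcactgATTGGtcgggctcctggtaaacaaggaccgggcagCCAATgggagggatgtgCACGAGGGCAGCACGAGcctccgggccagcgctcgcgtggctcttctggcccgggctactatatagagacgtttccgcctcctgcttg
ARRDC4, chr15:97960453-97960702, strand +: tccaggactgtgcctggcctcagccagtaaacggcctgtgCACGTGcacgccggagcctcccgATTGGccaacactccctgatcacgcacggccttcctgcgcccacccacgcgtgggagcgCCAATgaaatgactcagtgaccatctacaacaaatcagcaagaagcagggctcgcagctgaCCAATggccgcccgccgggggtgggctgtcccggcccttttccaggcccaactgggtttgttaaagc

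Windows were found for 9 of the 10 members (13 windows), and none was used for MYC. CACGTG stood in the windows of MXD4, MNT and MLX, against 7.26% of all 35116 RefSeq windows of that length. The CACGNG pair stood in TXNIP alone among the members, at bases -88 to -72 counted back from the start, and in 0.057% of all windows. The MXD1 window held no CACGTG but 2 CCAAT elements, at -141 and -100. CCAAT was in 34.6% of all windows. TGATGNAA was in 3.62% of all windows and in no window of a member. These are matches of letters and do not show binding.

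After TR-107, 4 of the 5 MAX-binding antagonists of MYC rose, namely MXD1, MXD4, MXI1 and MNT. MYC itself, the antagonist MXD3, and both MLX and MLXIP fell. MAX did not pass the test. TXNIP was listed at 0 counts in every library and could not be tested. In edgeR's quasi-likelihood test, with Benjamini-Hochberg adjustment over 13767 genes, 8 of the 9 tested members were called (4 higher, 4 lower), where 57.8% of all tested genes were called (29.2% higher, 28.6% lower). Between the groups, the libraries of 7 members did not overlap, as was so for 62.4% of all tested genes. With so large a share of all genes changed, these counts describe the members and do not set them apart. Here and below, fewer cells with a transcript and less of it per cell cannot be told apart in bulk RNA.

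**Figure D1:**
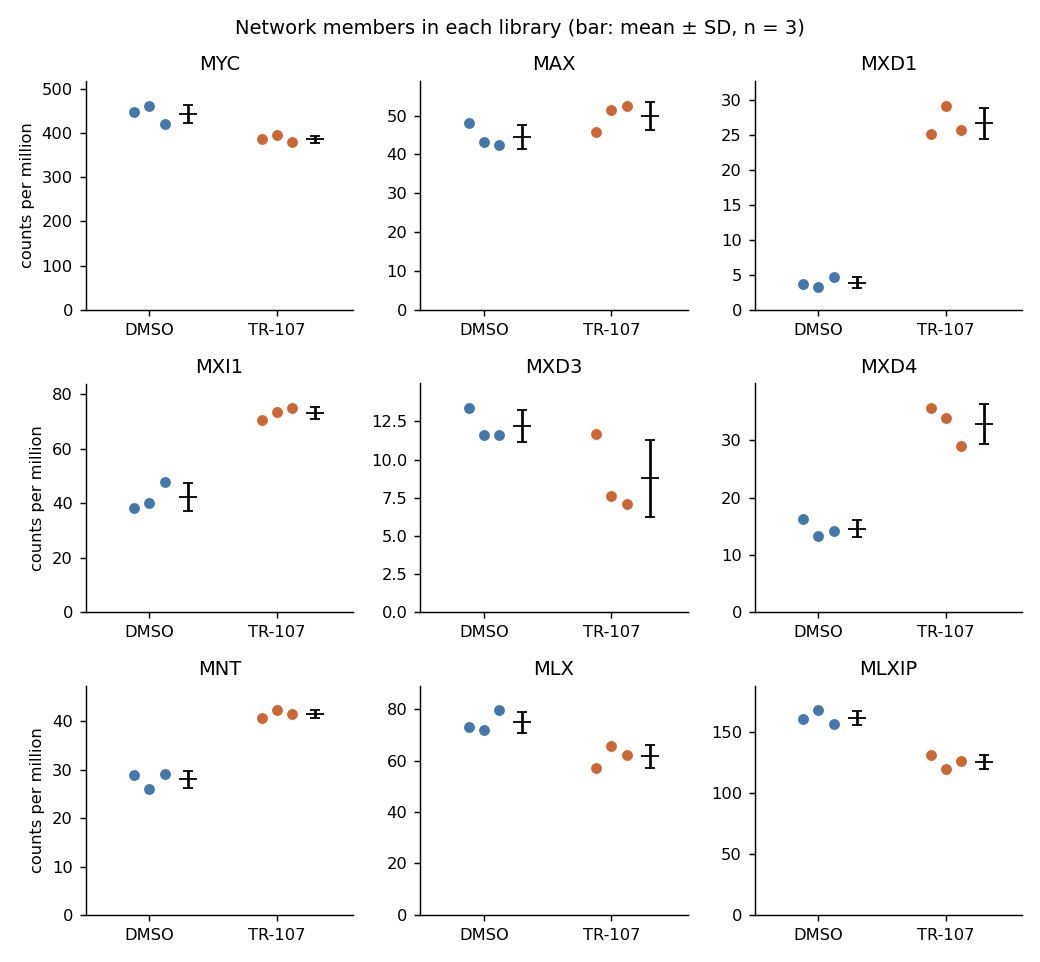
Level of the 9 tested members in each library, in CPM on axes that start at 0, with 3 DMSO libraries (blue) and 3 TR-107 libraries (orange) and the mean ± SD beside them. MXD1 goes from under 5 to over 25 CPM, while the MYC values lie between 379 and 462 CPM.

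MYC (gene ID 4609) was by far the most abundant member per length. Its level was 447, 462 and 421 CPM in the DMSO libraries and 385, 394 and 379 CPM in the TR-107 libraries. Every TR-107 library lay below every DMSO library, but the gap was small: the mean went from 443 ± 20.7 to 386 ± 7.73 CPM (SD, n = 3). The log2 fold change was -0.20 ± 0.04 (SE; edgeR adjusted p = 4.37e-05), with a 95% interval of -0.28 to -0.12. In size this change was at the 29.4th percentile of all tested genes, whose median absolute log2 fold change was 0.36. MAX (gene ID 4149; GRCh38.p14 chromosome 14, 65006101 to 65102695, minus strand), the common partner, had 48.1, 43.2 and 42.4 CPM in DMSO and 45.9, 51.5 and 52.6 CPM in TR-107. Its groups overlapped, through DMSO replicate 1 and TR-107 replicate 1. The log2 fold change of MAX was 0.17 ± 0.08 (SE; edgeR adjusted p = 0.0548; 95% interval 0.02 to 0.32 before adjustment). MAX passed the threshold without DMSO replicate 1 (0.21, edgeR adjusted p = 0.0371) or TR-107 replicate 1 (0.23, edgeR adjusted p = 0.0183), over a range of adjusted p of 0.0183 to 0.241 among 15 alternatives.

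MXD1 (gene ID 4084; chromosome 2, 69915109 to 69942945, plus strand), the founding MXD repressor, usually induced as cells stop dividing and differentiate, changed the most. It had 3.75, 3.28 and 4.71 CPM in DMSO and 25.1, 29.2 and 25.7 CPM in TR-107, from 70 to 114 counts per DMSO library and 430 to 551 per TR-107 library. All TR-107 libraries were far above all DMSO libraries. The rise was 6.78-fold (log2 fold change 2.76 ± 0.14, SE; edgeR adjusted p = 2.75e-20), at the 99.2nd percentile of all tested genes in size. MXD4 (gene ID 10608; chromosome 4, 2247432 to 2262109, minus strand), another MXD repressor linked to quiescent and differentiating cells, had 16.2, 13.3 and 14.2 CPM in DMSO and 35.6, 33.9 and 29.0 CPM in TR-107. Its groups did not overlap, and the rise was 2.26-fold (log2 fold change 1.17 ± 0.11, SE; edgeR adjusted p = 1.07e-12).

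MXI1 (gene ID 4601; chromosome 10, 110207605 to 110287365, plus strand), also known as MXD2, had 38.4, 40.2 and 48.0 CPM in DMSO and 70.6, 73.5 and 75.0 CPM in TR-107. It was the most abundant antagonist per length in both groups, and it rose 1.73-fold with no overlap (log2 fold change 0.79 ± 0.07, SE; edgeR adjusted p = 2.09e-12). MNT (gene ID 4335; chromosome 17, 2384073 to 2401060, minus strand), the antagonist that most cells express whether or not they divide, had 29.0, 26.0 and 29.1 CPM in DMSO and 40.7, 42.2 and 41.6 CPM in TR-107. All TR-107 libraries were above all DMSO libraries, by 1.48-fold (log2 fold change 0.57 ± 0.08, SE; edgeR adjusted p = 2.04e-07).

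MXD3 (gene ID 83463; chromosome 5, 177305499 to 177312752, minus strand), the MXD gene whose expression is tied to S phase, went the other way. It had 13.4, 11.6 and 11.6 CPM in DMSO and 11.7, 7.62 and 7.08 CPM in TR-107. TR-107 replicate 1 lay within the DMSO range and the other two TR-107 libraries lay below it. The log2 fold change was -0.48 ± 0.16 (SE; edgeR adjusted p = 0.0122). The call was lost without DMSO replicate 1 (-0.42, edgeR adjusted p = 0.0638), the TR-107 libraries numbered 2 (-0.39, 0.0688) or 3 (-0.34, 0.0966), within a range of edgeR adjusted p of 0.000371 to 0.0966. Of the MXD3 exon bases, 18% also lie in exons of RAB24 on the same strand and 22.5% in exons of PRELID1 on the other. Exon shares here and below are by GENCODE 29. PRELID1 fell (131 ± 5.08 to 103 ± 9.58 CPM, SD, n = 3; edgeR adjusted p = 1.43e-06) and RAB24 did not pass the test (5.76 ± 0.974 and 6.72 ± 0.134 CPM; edgeR adjusted p = 0.334). Whether the counting used strand is not given in the sources used here, so the part of these neighbours in the MXD3 value was not tested.

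**Figure D2:**
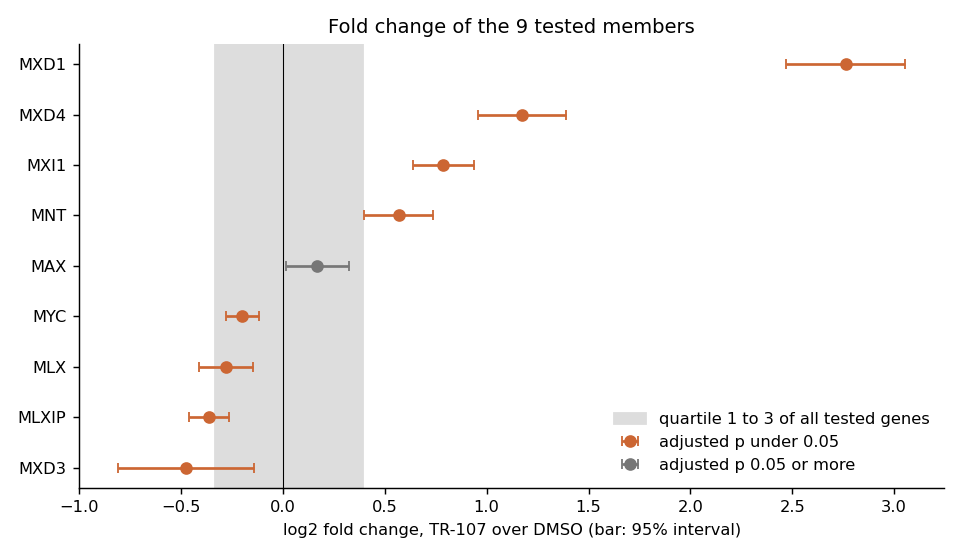
Log2 fold change of each tested member with its 95% interval, orange where edgeR's adjusted p was under 0.05, over a grey band from the lower to the upper quartile of all 13767 tested genes (-0.33 to 0.39). MXD1, MXD4, MXI1 and MNT lie to the right of the band, and MYC, MLX and MAX lie inside it.

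MLX (gene ID 6945; chromosome 17, 42567100 to 42573203, plus strand), the partner of the Mondo proteins, had 73.2, 71.8 and 79.4 CPM in DMSO and 57.0, 65.7 and 62.2 CPM in TR-107. The groups did not overlap, and MLX was 1.21-fold lower (log2 fold change -0.28 ± 0.07, SE; edgeR adjusted p = 0.000291). Of its exon bases 18.1% are shared, on the opposite strand, with PSMC3IP, which also fell (16.1 ± 1.00 to 12.2 ± 1.19 CPM, SD, n = 3; edgeR adjusted p = 0.00717). The part of PSMC3IP in the MLX value was not tested. MLXIP (gene ID 22877; chromosome 12, 122078756 to 122147344, plus strand), a Mondo protein that senses glucose 6-phosphate, had 161, 168 and 157 CPM in DMSO and 131, 119.6 and 126 CPM in TR-107. It was 1.29-fold lower with no overlap (log2 fold change -0.36 ± 0.05, SE; edgeR adjusted p = 2.41e-08). None of the MLXIP exon bases are shared with another gene. Shares on the opposite strand were 12.2% for MNT (AC006435.1), 4.45% for MXI1 and 4.15% for MAX. Shares on the same strand were 3.73% for MXD1 (SNRNP27) and 1.13% for MXD4 (MIR4800). The part of these neighbours in the members' values was not tested.

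TXNIP (gene ID 10628; chromosome 1, 145992435 to 145996579, minus strand) was listed at 0 in all 3 DMSO and all 3 TR-107 libraries. Taken as counts, 0 allows up to 3 counts per library, or 0.127 to 0.174 CPM, with counting error alone. EIF4A1, the helicase of translation initiation that dividing cells need, was also listed at 0 in all 6 libraries, so a 0 in these files can stand for reads that were not assigned. No exon base of TXNIP is shared with another gene in GENCODE 29, which need not match the annotation that was counted. Shared exon bases of EIF4A1 were not examined. Of its neighbours on chromosome 1, POLR3GL had 233 to 400 counts per library and HJV had 0. Whether TXNIP RNA was missing from these cells or its reads were not counted cannot be told apart here, and no change of TXNIP can be given.

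Levels of different genes were compared as CPM per kilobase of merged exon, with exon lengths from GENCODE 29, which need not match the exons that the authors counted. On this scale MYC stood first in both groups, at 148 ± 6.89 under DMSO and 129 ± 2.58 under TR-107 (SD, n = 3). In DMSO it was followed by MLX (17.6), MLXIP (11.6), MAX (10.1), MXI1 (9.16), MNT (3.21), MXD3 (2.37), MXD4 (2.06) and MXD1 (0.616). The neighbours MAX and MXI1, and MXD3 and MXD4, overlapped between libraries, and the others did not. In TR-107 MXI1 had moved to the second place (15.9), followed by MLX (14.5), MAX (11.3), MLXIP (9.04), MNT (4.76), MXD4 (4.65), MXD1 (4.20) and MXD3 (1.71). There MXI1 overlapped MLX, MNT overlapped MXD4, and MXD4 overlapped MXD1. MXD3 took the last place from MXD1.

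The summed level of the 5 antagonists on this scale was 17.1, 16.4 and 18.8 in DMSO and 31.2, 31.7 and 30.6 in TR-107. For every 100 units of MYC, DMSO libraries held 11.8 ± 1.40 units of antagonist mRNA and TR-107 libraries 24.2 ± 0.115 (SD, n = 3), with no overlap between the groups. MXI1 was the largest part of the sum in all 6 libraries, with 52.5 ± 3.53% (SD, n = 3) under DMSO and 50.9 ± 2.16% under TR-107. MXD1 went from 3.52 ± 0.406% to 13.5 ± 0.950% of the sum, and MXD3 from 13.6 ± 1.56% to 5.47 ± 1.55% (SD, n = 3). These sums describe mRNA and were given no test, since they are built from members already described.

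**Figure D3:**
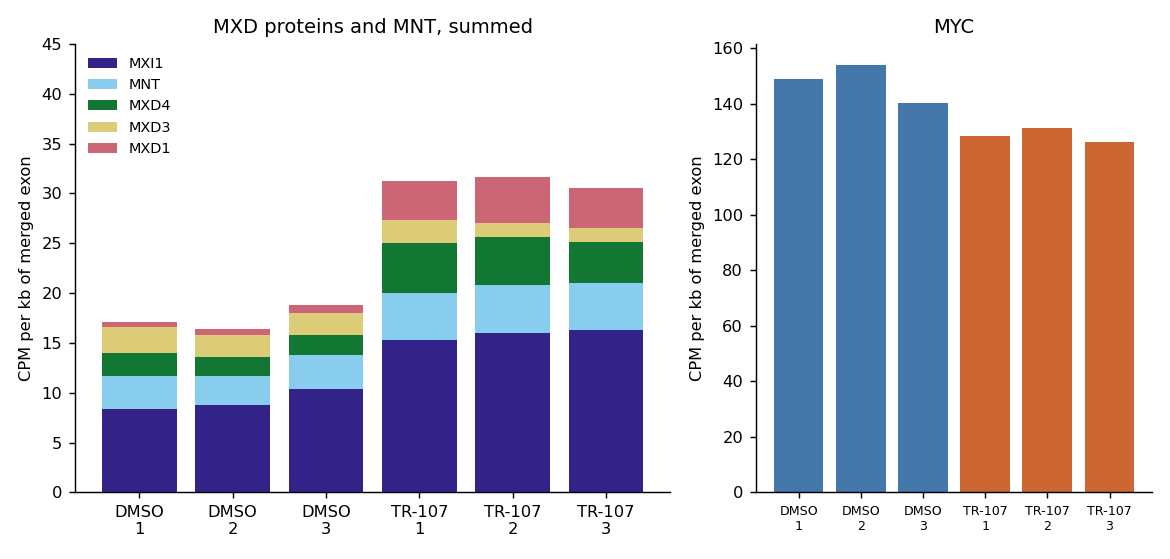
Left, CPM per kilobase of merged exon of MXI1, MNT, MXD4, MXD3 and MXD1, stacked for each library; right, MYC on the same unit with its own axis. The stacks reach 16.4 to 18.8 in DMSO and 30.6 to 31.7 in TR-107, while the MYC bars stay within 126 and 154.

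Of 6 other E-box factors of the same protein class, 5 were tested, 4 rose and 0 fell, where 29.2% of all tested genes rose and 28.6% fell. Their median log2 fold change was 0.31, against 0.01 over all tested genes. A list of 5 tested genes cannot be set apart by these shares or by this median. MYCL, a MYC paralogue with restricted expression, rose from 7.96 ± 1.06 to 22.2 ± 2.63 CPM (SD, n = 3; log2 fold change 1.48). MLXIPL, the Mondo relative of MLXIP best known from liver, rose from 30.0 ± 2.19 to 51.6 ± 3.66 CPM (0.78), where MLXIP itself fell. The general E-box factors USF2 (0.31) and USF1 (0.27) rose by less, and USF1 lost its call without DMSO replicate 1 (0.23), DMSO replicate 2 (0.21) or TR-107 replicate 2 (0.20), and when libraries were scaled by size only (0.20). MGA, a large MAX partner, did not pass the test (0.03). MYCN was listed at 0 in all 6 libraries. Of the noncoding RNAs around MYC, neither PVT1 (43.0 ± 0.796 and 39.1 ± 5.46 CPM, SD, n = 3; edgeR adjusted p = 0.152) nor CCAT1 (7.44 ± 1.46 and 9.31 ± 1.02 CPM; 0.113) passed. PVT1 passed as lower without TR-107 replicate 1 (-0.25) and under scaling by size only (-0.20), and CCAT1 as higher without DMSO replicate 2 (0.48). CASC11 had 1 to 11 counts per library and was not tested.

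Most genes of a textbook list of MYC-activated genes were lower. Like the other lists, it and the MYC-repressed list were chosen with earlier results of these data known. The counts describe these genes only. Of the 25 listed as activated, 23 were tested, 20 fell and 0 rose, where 28.6% of all tested genes fell. Their median was -0.34 on the log2 scale. PTMA, an abundant chromatin-associated protein, fell from 2525 ± 83.4 to 1327 ± 49.3 CPM, and NCL, the nucleolar protein nucleolin, from 2079 ± 31.7 to 1258 ± 32.3 CPM (SD, n = 3). LDHA, lactate dehydrogenase (-1.14), and HSPD1, the mitochondrial chaperonin (-0.72), are further examples. The 3 that did not pass, named after their values were seen, were CDK4 (0.05), SHMT2 (0.09) and TFRC (0.02), and SHMT2 passed as higher without TR-107 replicate 1 (0.12) and with upper-quartile factors (0.09). The 2 that could not be tested, CCND2 and EIF4A1, were listed at 0. Of 9 genes that MYC is known to repress, 6 rose and 2 fell, where 29.2% of all tested genes rose, and the median was 1.215. NDRG1, a stress- and differentiation-linked protein, rose from 57.7 ± 3.77 to 355 ± 1.62 CPM (SD, n = 3). DDIT3 (4.04), GADD45A (2.05) and CDKN1A (1.76) rose, and CEBPA (-0.63) and CLU (-0.19) fell. As background, DDIT3 and GADD45A are also targets of the integrated stress response and CDKN1A of p53, and the span of DDIT3 overlaps MARS1.

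Of 7 listed Mondo targets besides TXNIP, 6 were tested, 2 rose and 3 fell, where 29.2% of all tested genes rose and 28.6% fell. With 6 genes these shares cannot set the list apart. ARRDC4, an arrestin-fold protein that responds to glucose like TXNIP, rose from 8.84 ± 1.18 to 21.2 ± 2.12 CPM (SD, n = 3; log2 fold change 1.26 ± 0.13, SE; edgeR adjusted p = 5.91e-11). Its window holds an E-box at -210. KLF10, a zinc-finger repressor, rose from 106 ± 1.41 to 158 ± 2.58 CPM (0.58). PFKFB3, a regulator of glycolysis (-0.69), FASN, the fatty acid synthase (-0.98), and LDHA (-1.14), which stands in both lists, fell. HK2 did not pass (-0.04), and PKLR was listed at 0. Among 7 arrestins related to TXNIP in fold, 3 rose and 2 fell of 6 tested, again beside a background of 29.2% higher and 28.6% lower. ARRDC3, a membrane-protein adaptor, rose from 25.5 ± 0.266 to 62.9 ± 4.54 CPM (1.30), ARRDC1 rose by less (0.55), and ARRDC2 did not pass (29.6 and 29.5 CPM). The classical arrestins ARRB1 (31.6 ± 0.545 to 12.1 ± 0.415 CPM, SD, n = 3) and ARRB2 (-0.47) fell, and ARRDC5, with at most 15 counts in a library, was not tested.

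Of 11 genes of the thioredoxin system and of TXNIP turnover and function, 10 were tested, 4 rose and 1 fell. Over all tested genes 57.8% were called (29.2% higher, 28.6% lower), and with 10 genes these shares cannot set the list apart. Between the groups, the libraries of 8 of the 10 did not overlap, as was so for 62.4% of all tested genes. TXNRD1, the cytosolic thioredoxin reductase, rose from 630 ± 19.2 to 1493 ± 30.7 CPM (SD, n = 3). ITCH, a ubiquitin ligase for TXNIP (0.51), PRKAA2, a catalytic subunit of AMPK (0.54), and SLC2A1, the glucose transporter whose uptake TXNIP limits (0.25), rose. PRKAA2 had 10.3 ± 2.04 CPM in DMSO and 14.9 ± 0.250 CPM in TR-107 (SD, n = 3). The other catalytic subunit, PRKAA1, named after its values were seen, had 73.8 ± 1.57 and 67.5 ± 4.18 CPM. PRKAA1 was lower in every TR-107 library but did not pass (-0.13, edgeR adjusted p = 0.0761). TXN2, the mitochondrial thioredoxin, fell (-0.21). NLRP3 was listed at 0 except for 4 counts in 1 DMSO library.

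**Figure D4:**
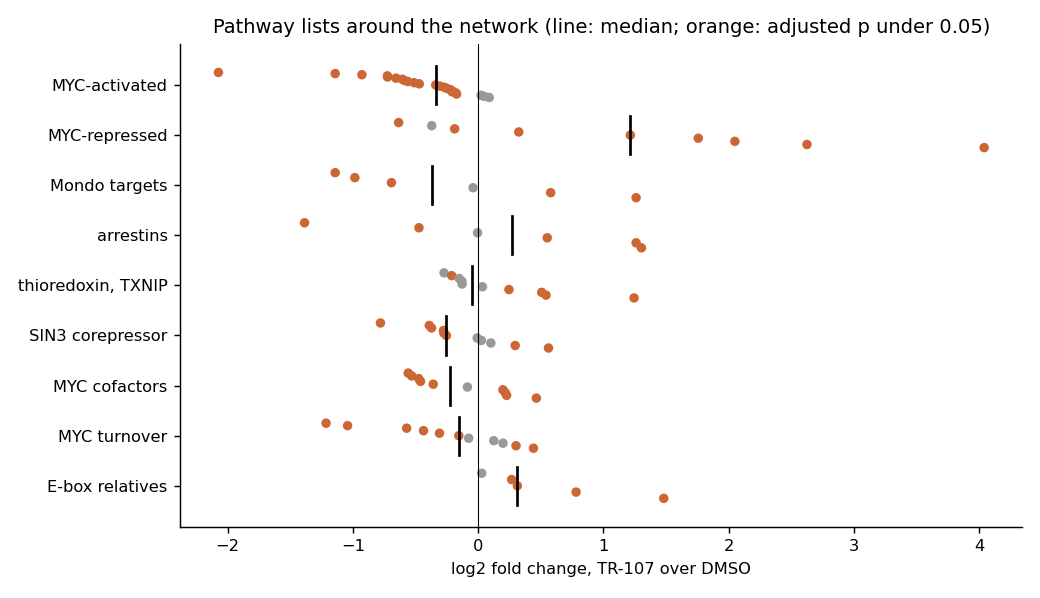
Log2 fold change of each tested gene in 9 lists around the network, orange where edgeR's adjusted p was under 0.05 and grey otherwise, with a vertical line at each list's median. The medians run from -0.37 for the Mondo targets to 1.215 for the genes repressed by MYC.

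Partners of the network moved in both directions, and their counts are to be read against the 29.2% of all tested genes that rose, the 28.6% that fell and the median of 0.01. Of 11 SIN3 corepressor genes, 2 rose and 6 fell, with a median of -0.25. SIN3B, a scaffold of the complex (0.30), and ARID4A (0.56) rose, while the histone deacetylases HDAC1 (-0.25) and HDAC2 (-0.28) and the histone chaperones RBBP4 (-0.39) and RBBP7 (-0.37) fell. Of 10 MYC cofactors, 4 rose and 5 fell, where 57.8% of all tested genes were called. Among those that rose were EP400 (0.20), ZBTB17 (MIZ1, 0.23) and KAT5 (0.22). RUVBL1 (-0.56), RUVBL2 (-0.36), WDR5 (-0.53) and HCFC1 (-0.46) fell. KAT5 lost its call without any 1 of the DMSO libraries or TR-107 replicate 1 or 2 (0.18 to 0.22), ZBTB17 without any 1 of the DMSO libraries or TR-107 replicate 2 or 3 (0.17 to 0.24), and EP400 without DMSO replicate 3 (0.12). KAT5 and ZBTB17 also lost it under DESeq2 (0.21 and 0.22), with no filter on low counts (0.21 and 0.22) and under scaling by size only (0.15 and 0.16). Of 11 regulators of MYC protein turnover, 2 rose and 6 fell, where 28.6% of all tested genes fell. SKP2, a ubiquitin ligase subunit, fell from 90.5 ± 4.14 to 38.9 ± 4.17 CPM, and AURKA, a mitotic kinase that shields MYC proteins, from 117 ± 7.23 to 56.7 ± 2.03 CPM (SD, n = 3). CIP2A, which protects MYC from phosphatase (-0.44), and STUB1 (-0.57) fell, and HUWE1 (0.44) and GSK3B, the kinase that marks MYC for decay (0.30), rose.

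The genes whose course over the 6 libraries was nearest to that of MYC were TMUB1, TLE3, TMED9, PATL1 and SLC16A3. Nearness was the root mean square difference of log2 CPM, each centred on its own mean, among 10547 genes with at least 5 CPM, and it was 0.0157 to 0.0201 for these 5. For MXD1, which was chosen for this after its values were seen, the nearest were SLC7A11, SUN3, TSC22D3, STC2 and CLGN, at 0.0866 to 0.173. All these genes share the libraries and the 2 groups, so nearness reflects the size and direction of the change between groups, together with the spread of libraries within each group.

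Of 7 epithelial markers, not all of them specific to intestine, 6 were above the filter on low counts and VIL1 had at most 1 count in a library. Their summed level was 5157 to 5208 CPM in DMSO and 5656 to 5791 CPM in TR-107, most of it from the keratins KRT8, KRT18 and KRT19. The members did not move as one: CDH1, KRT18 and KRT19 rose, CDX2, an intestinal transcription factor, fell from 24.5 ± 4.22 to 17.7 ± 1.01 CPM (SD, n = 3; edgeR adjusted p = 0.000518), and EPCAM and KRT8 did not pass the test. PTPRC, CD3E, COL3A1, DCN, LUM and CDH5, which define leukocytes, fibroblasts and endothelium, were listed at 0 in all 6 libraries. As with EIF4A1, a 0 in these files can stand for reads that were not assigned. The leukocyte list summed to 4.72 to 6.78 CPM in DMSO and 10.2 to 14.5 CPM in TR-107, nearly all of it CD68, a lysosomal protein. The fibroblast list summed to 13.3 to 16.5 CPM in DMSO and 16.2 to 18.3 CPM in TR-107, nearly all of it COL1A1, and the endothelial list to at most 0.993 CPM. The part of these low levels in the members' values was not tested.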

How the data were processed

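Raw read counts per NCBI gene ID were used as deposited. Per the submitters' processing notes the authors used FastQC, Trimmomatic, HISAT2, featureCounts and hg38. Their versions, the annotation used and how strand and multiply mapped reads were handled are not given in the sources. Symbols for 27745 of 28395 IDs came from RefSeq GRCh38.p14. The test was edgeR 4.0.16 (R 4.3.3) with TMM scaling, filterByExpr, a robust quasi-likelihood fit with group as the only term, and Benjamini-Hochberg adjustment at a threshold of 0.05 over all 13767 genes tested. The SE is the log2 fold change divided by the square root of F. Of the 10 members 9 passed the filter. Libraries held 17264039 to 23708135 counts. The labels do not say how cultures were separated, so p-values reflect only how these libraries vary, which may be technical. No pair of replicates lay within sampling noise (chi-square 3.92 to 6.05 per degree of freedom).

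Named genes are all members, from each list up to 4 called genes per direction by p, and all of lists of up to 7. Some genes that the rule or the marker lists name are not reported here. The members and lists were chosen with earlier results of these data known. Alternatives were RLE and upper-quartile factors, library size alone, 2 other filters, the replicate block, DESeq2 1.42.0, limma-voom (limma 3.58.1), omission of mitochondrially encoded genes, and omission of each library. On simulated counts with 200 changed genes among 13561, 77.6%, 95.5% and 100% of changes of 1.5, 2 and 4-fold were called in the right direction, and 0.0973% of unchanged genes were called. In the real data 57.8% of tested genes were called, so these rates need not carry over. Changes under 1.5-fold, such as those of MYC, MLX and MLXIP, were not simulated. Plots were made with matplotlib 3.10.9 and Python 3.11.15.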

Additional observations from a re-analysis of the deposited data

How the results depend on the processing

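MYC, MXD1, MXD4, MXI1, MNT, MLX and MLXIP kept their direction and their call under all 15 alternatives. Their log2 fold changes ranged from -0.26 to -0.18 for MYC, 2.63 to 2.92 for MXD1, 1.10 to 1.26 for MXD4, 0.72 to 0.88 for MXI1, 0.50 to 0.59 for MNT, -0.34 to -0.23 for MLX and -0.43 to -0.33 for MLXIP. MXD3 kept its direction (-0.73 to -0.34) and its call under 12 of the 15, and MAX (0.10 to 0.23) passed under 4, among them upper-quartile factors (0.17) and limma-voom (0.18). Leaving out 1 library at a time gave 4 to 5 members called higher and 3 to 4 called lower. Under a replicate block edgeR called 3976 genes higher and 3942 lower, against 4015 and 3941, and again 4 and 4 members. Same-numbered libraries did not deviate together (r of -0.0311, -0.0185 and 0.0486), and not every library correlated best with its own. With so few libraries, r cannot tell whether same-numbered ones were handled together, and the labels do not say. Among 55 other named genes, 788 of 825 values kept direction and call, and 21 were lost calls of 4 genes. Signs turned only in genes that had not passed. With library size alone these were MGA (-0.0359), CDK4 (-0.0149) and TFRC (-0.0404), and with upper-quartile factors ARRDC2 (0.0015). With 1 library left out, the ranges were -0.0019 to 0.0551 for MGA, -0.0069 to 0.0379 for TFRC, -0.0713 to 0.0019 for HK2 and -0.108 to 0.0527 for ARRDC2. The cause was not tested. Depth limits MXD1 in DMSO (70 to 114 counts a library) and MXD3 (139 to 281) most among the members.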
